A study of Homo sapiens with 17 samples.

Results

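The 4 libraries described here followed GATA2/eGFP+ endothelial cells that had been made without vitamin C (VC-) and re-plated, and were read at 24, 36, 48 and 60 h. They were chosen by their sample titles, 1 library for each time, and are 4 of the 17 libraries of the series. The cells came from H1, a single line of human embryonic stem cells, and carried a green fluorescent reporter of GATA2, by which they had been selected. Per the labels each course library is a mixture of endothelial and haematopoietic cells, so that in these bulk samples more cells of a type and more RNA per cell cannot be told apart. The matching course from endothelial cells made with vitamin C (VC+), at the same 4 times, served for comparison, as did the adherent and the suspended cells of a VC+ culture at 60 h. The 4 VC- libraries held 7653510, 8794604, 6480153 and 7733898 counts in order of time, and the 4 VC+ libraries 6214675 to 8254379. Mitochondrial genes took 4.31% to 5.1% of the VC- counts and 4.15% to 5.86% of the VC+ counts, in both courses more at each later time, and the part of this drift in the results below was not tested.

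In the embryo the first blood stem and progenitor cells come from endothelium of the arterial kind, in a change called the endothelial-to-haematopoietic transition: flat cells joined by VE-cadherin round up, detach and take on a blood programme under RUNX1 and its partner GFI1. Notch signalling and the artery fate precede that change, while growth of new vessels is led by tip cells that divide little and secrete and sense growth factors. Vitamin C serves as a cofactor for enzymes that strip methyl marks off histones and DNA, among them the demethylases KDM6A and KDM6B named in the series title. The question put to these 4 libraries was which genes moved over the hours without vitamin C, and in which order.

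In the course libraries each gene was read in CPM, its count relative to the TMM-scaled total of the library. Its slope, the log2 change over the 36 h from 24 to 60 h, came from a straight line per course fitted to all 8 libraries with edgeR. Since every time has 1 library, the standard error (SE) of a slope measures departures from these lines and not the spread between cultures. Of 15602 genes tested, 1347 rose (8.63%) and 1198 fell (7.68%) at an adjusted p under 0.05 (Benjamini-Hochberg), and the median slope of all genes was 0.019. Slopes of at least 1, a doubling or more, were reached by 823 of the rising genes, and 539 of the falling ones had a slope of -1 or below. These counts rest on both ends of the course: 394 genes rose and 379 fell without the 24 h library, and 369 rose and 258 fell without the 60 h library. In a principal component analysis the first component (40.5% of the variance) ordered the VC- libraries by hours, from -35.5 at 24 h through -9.04 and 21.8 to 51.5 at 60 h.

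The order of onset was read without a test, as the first time at which CPM plus 0.5 had moved at least 2-fold from 24 h, among 12567 genes that reached 5 CPM in at least 1 of the 4 libraries. Upward onsets grew in number with time: 202 genes (1.61%) at 36 h, 411 (3.27%) at 48 h and 511 (4.07%) at 60 h, 1124 in all (8.94%). Downward onsets were fewer and later, with 89 genes (0.708%) at 36 h, 253 (2.01%) at 48 h and 445 (3.54%) at 60 h, 787 in all (6.26%). Of the 36 h onsets, 127 rises and 37 falls held at both later times (62.9% and 41.6%), against 324 rises and 150 falls (78.8% and 59.3%) of the 48 h onsets, which had to hold at 60 h alone. Between neighbouring libraries the rising steps were even, at 202, 227 and 232 genes (1.61%, 1.81% and 1.85%), whereas the falling steps grew from 89 to 132 to 259 genes (0.708%, 1.05% and 2.06%). Raising the minimum to 20 CPM left 72, 194 and 263 rises and 23, 115 and 294 falls in the same order of times.

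**Figure D1:**
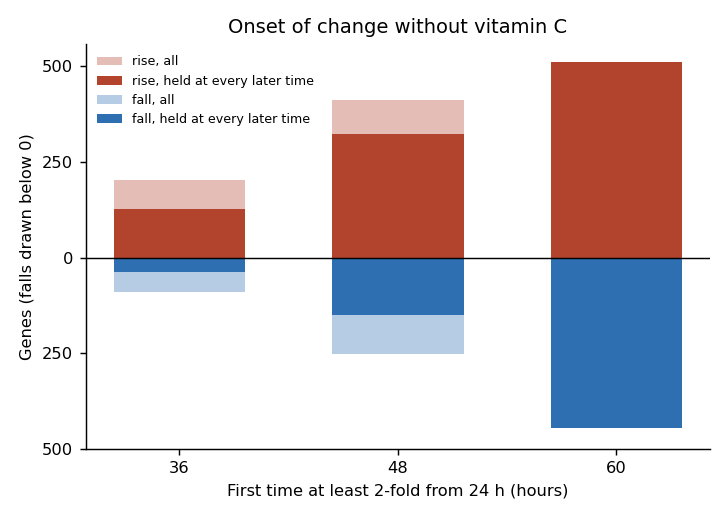
Number of genes by the first time at which they had moved at least 2-fold from 24 h, in hours, with rises above and falls below 0. Pale bars show all genes and dark bars those that held at every later time: 127 of 202 rises and 37 of 89 falls at 36 h.

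Gene lists are described by their counts, beside the 8.63% of all genes that rose and the 7.68% that fell. The lists overlap, since genes such as DLL4 and GATA2 stand in more than 1 of them. The lists with the most falls for their size were those of mitosis (20 of 20 tested members) and DNA replication (19 of 20). The lists with the most rises were p53 targets (14 of 18), fatty acid synthesis (7 of 10), erythroid genes (11 of 17), arterial endothelium (9 of 15) and the Notch pathway (8 of 15). Of 20 ribosomal protein genes none was called, with slopes from -0.91 to 0.41 and a median of 0.11.

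**Figure D2:**
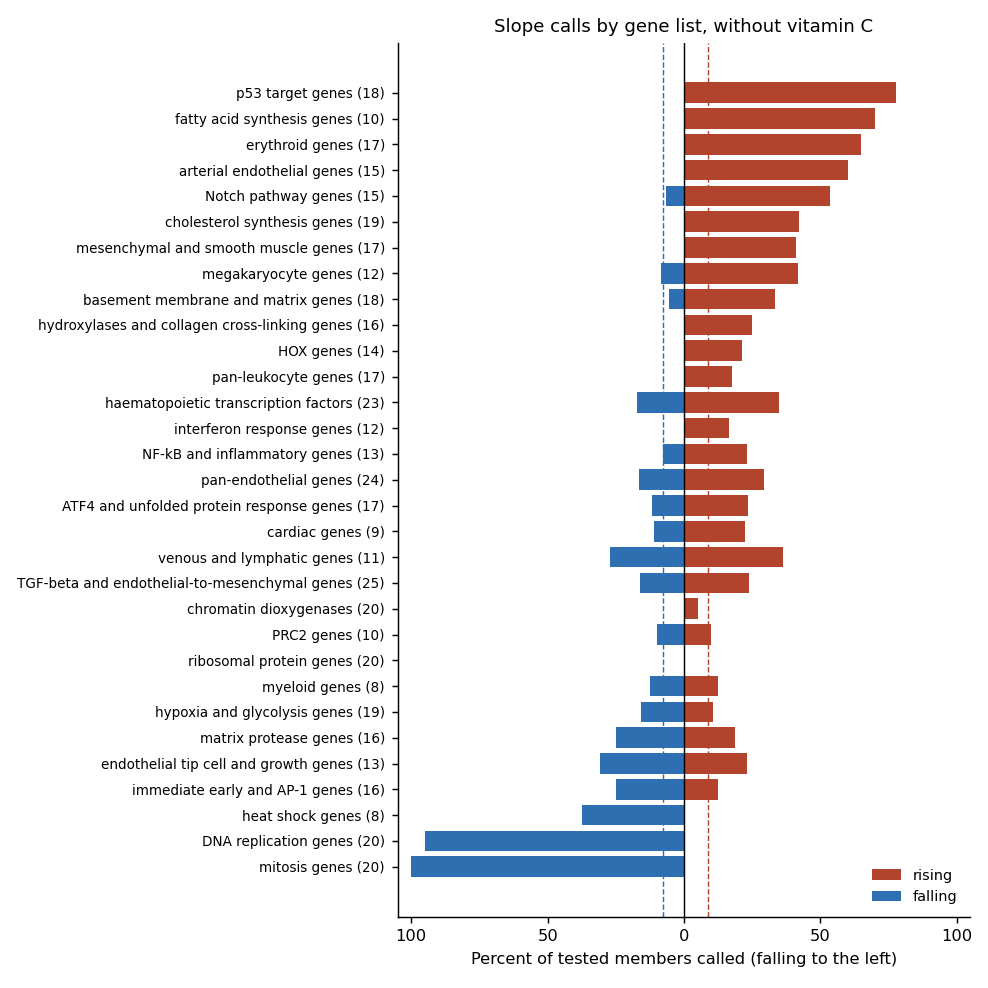
Share of the tested members of each gene list (number tested in brackets, lists of at least 8) whose slope without vitamin C was called, rising to the right and falling to the left, in percent. Dashed lines mark the 8.63% and 7.68% of all genes, and the mitosis and DNA replication lists reach furthest to the left.

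The cell division genes fell together, and most of the fall came late for the mitosis list as a whole. Its summed level was 3370, 2580, 2390 and 966 CPM at 24, 36, 48 and 60 h. The DNA replication list fell more evenly, with 2130, 1900, 1470 and 973 CPM. MKI67, a marker of dividing cells, had 428, 298, 266 and 100 CPM at 24, 36, 48 and 60 h. CDK1, the kinase that starts mitosis, had 159, 110, 95.5 and 37.7 CPM. Both were lower in each later library, and the last step was the steepest. Their slopes were -1.86 ± 0.26 and -1.86 ± 0.26 (SE; adjusted p 0.000324 and 0.000369). The mitotic kinases AURKA (85, 65.7, 50.8 and 31 CPM) and AURKB (92.9, 61.9, 52.9 and 23.9 CPM) fell by 1.40 ± 0.19 and 1.78 ± 0.26. The fall of AURKA was spread over all steps. All 20 mitosis genes had their 2-fold onset at 60 h, against 3.54% of the genes of the onset filter, and their median slope was -1.59. DNA replication genes started earlier: 5 of 20 had their onset at 48 h and 9 at 60 h, with a median slope of -1.21.

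RRM2, a subunit of the enzyme that makes deoxynucleotides, went from 123 through 75.2 and 55.7 to 24.9 CPM and fell by 2.16 ± 0.20 (adjusted p 1.61e-05). GINS1 and CDC45, parts of the helicase that opens DNA at the fork, went from 56.2 to 15.2 and from 43.8 to 11.4 CPM. They fell by 1.89 ± 0.20 and 1.91 ± 0.25, while the helicase subunit MCM4 fell by 1.31 ± 0.17 (227, 197, 143 and 91.4 CPM). CCNE1, the cyclin of the entry into replication, was the single member of that list that was not called. Of the 6 largest sustained falls with an onset at 60 h, the first was CBLN1, a secreted synapse protein, which had 8.09, 16.7, 4.56 and 0.779 CPM, highest at 36 h, so that a straight line describes it poorly. Further down were 4 genes of division: CKAP2L, a spindle protein, held 48.8 and 48.5 CPM at 36 and 48 h and 13.5 CPM at 60 h, and CDCA2, FAM83D and PIF1 were 6.4, 6.43 and 6.79 times lower at 60 h than at 24 h. The replication list lost 10 of its calls without the 60 h library, leaving 9, and the mitosis list lost 17, leaving 3. The calls of AURKB, CCNB2, CDC20, CENPE, CDCA2, CKAP2L, FAM83D, PIF1 and PLK1 are among those lost there (adjusted p 0.0529 to 0.312), and CDCA2 also misses the threshold without the 24 h library (adjusted p 0.0504).

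Promoters of genes expressed in division are known for a short element, the cell cycle gene homology region, with the core TTTGAA. They are also known for CCAAT boxes bound by NF-Y. In the RefSeq promoter table (GRCh38.p14), windows from 250 bases before to 50 bases after the start were searched on both strands, for genes with a single start listed. TTTGAA stood in 81 of the 245 windows found for genes with a sustained fall at 60 h (33.1%), against 8 of 65 at 48 h (12.3%), 1 of 17 at 36 h (5.88%) and 605 of all 6645 windows of the onset filter (9.1%). CCAAT stood in 54.3% of the windows of the 60 h class and in 37.7% of all windows. Of 14 mitosis genes with a window, 9 held TTTGAA and 13 held CCAAT, and of 11 DNA replication genes 1 and 7 did. Among the rises the share with TTTGAA was 7.41%, 11.4% and 7.88% at 36, 48 and 60 h. These are counts of letters, and a match is neither a bound site nor a cause.

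The 250 bases before the start of 5 mitosis genes and of GINS1 show the 2 elements, with TTTGAA and CCAAT of either strand in capitals. MKI67, CCNB2 (a mitotic cyclin), PLK1 (a mitotic kinase) and CDC20 (an activator of the ubiquitin ligase that ends mitosis) hold both elements, and in MKI67 the last pair shares bases. CENPE, a motor protein of chromosome attachment, fell with them and holds neither, and GINS1 of the replication list holds CCAAT alone.
MKI67, chr10:128126424-128126673, minus strand: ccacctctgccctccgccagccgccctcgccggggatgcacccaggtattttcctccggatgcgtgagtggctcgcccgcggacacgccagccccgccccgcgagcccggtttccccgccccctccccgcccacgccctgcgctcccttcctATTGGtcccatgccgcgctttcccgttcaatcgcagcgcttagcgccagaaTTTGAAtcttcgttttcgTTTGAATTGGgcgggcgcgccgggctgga
CCNB2, chr15:59104896-59105145, plus strand: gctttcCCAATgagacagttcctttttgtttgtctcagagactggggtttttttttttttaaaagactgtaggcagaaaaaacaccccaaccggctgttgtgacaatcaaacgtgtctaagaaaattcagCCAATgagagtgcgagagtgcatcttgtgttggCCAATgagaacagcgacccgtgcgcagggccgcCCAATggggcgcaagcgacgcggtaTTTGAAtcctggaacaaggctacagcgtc
PLK1, chr16:23678639-23678888, plus strand: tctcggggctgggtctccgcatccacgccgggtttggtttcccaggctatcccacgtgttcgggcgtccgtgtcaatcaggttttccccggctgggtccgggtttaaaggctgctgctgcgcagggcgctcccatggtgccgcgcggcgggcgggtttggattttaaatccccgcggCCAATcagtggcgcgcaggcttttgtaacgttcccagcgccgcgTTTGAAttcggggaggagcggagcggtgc
CDC20, chr1:43358731-43358980, plus strand: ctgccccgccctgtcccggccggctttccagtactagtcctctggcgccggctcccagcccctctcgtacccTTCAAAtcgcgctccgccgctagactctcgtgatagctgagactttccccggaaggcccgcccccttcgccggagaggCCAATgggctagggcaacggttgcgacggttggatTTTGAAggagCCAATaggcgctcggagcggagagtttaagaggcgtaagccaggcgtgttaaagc
CENPE, chr4:103198344-103198593, minus strand: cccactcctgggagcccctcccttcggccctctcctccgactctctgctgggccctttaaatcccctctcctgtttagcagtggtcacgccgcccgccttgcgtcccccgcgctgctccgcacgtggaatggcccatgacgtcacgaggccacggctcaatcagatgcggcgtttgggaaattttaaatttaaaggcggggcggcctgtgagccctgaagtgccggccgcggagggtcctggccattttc
GINS1, chr20:25407423-25407672, plus strand: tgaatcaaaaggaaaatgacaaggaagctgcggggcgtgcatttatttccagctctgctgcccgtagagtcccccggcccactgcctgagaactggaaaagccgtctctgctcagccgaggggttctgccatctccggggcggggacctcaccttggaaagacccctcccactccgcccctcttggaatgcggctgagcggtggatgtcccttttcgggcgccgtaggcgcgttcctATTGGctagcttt

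In CCNB2 the CCAAT matches begin 244, 120, 87 and 54 bases before the start and TTTGAA 29 bases before it. PLK1 has the same pair at 73 and 29 bases, and the nearer TTTGAA of MKI67 also begins 29 bases before the start. The levels of these genes moved alike: CCNB2 had 74.8, 68.3, 57.8 and 25.8 CPM, PLK1 165, 149, 117 and 51.2 CPM, and CDC20 152, 121, 101 and 43.9 CPM. CENPE, with no match in the 250 bases shown, had 128, 94.4, 90.3 and 35.7 CPM. The slopes of the 4 lay between -1.38 and -1.63.

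Genes known as targets of p53, the factor that halts division under stress, rose as division genes fell. CDKN1A, which encodes the inhibitor p21 of cyclin-dependent kinases, had 149, 211, 314 and 398 CPM, higher in each later library. Its level was 2.67 times higher at 60 h than at 24 h (95% counting interval 2.49 to 2.86) and its slope was 1.45 ± 0.15 (adjusted p 4.01e-05). ZMAT3, an RNA-binding p53 target, went from 29.5 and 41 to 95.5 and 122 CPM (slope 2.21 ± 0.23), and TP53INP1 from 52.3 through 91.8 to 159 and 177 CPM (slope 1.81 ± 0.24). Of the 18 targets these 3 had their onset at 48 h and 1 other at 60 h, the hour at which the mitosis genes passed 2-fold. That order depends on the 2-fold rule. Already at 36 h CDKN1A was 1.42 times higher than at 24 h, and MKI67 and CDK1 were 1.44 and 1.46 times lower. Which of them began to move first was not tested. The death receptor gene TNFRSF10B rose by less than 2-fold, from 266 to 503 CPM (slope 0.88 ± 0.15). Of 18 targets 14 rose and none fell, with a median slope of 0.89, while BTG2, FDXR, PLK3 and TP53I3 were not called. Without the 24 h library 5 were called and without the 60 h library 4, with TNFRSF10B lost there (adjusted p 0.111). CDKN1C, an imprinted gene for another inhibitor of the same kinases, stood at 0.392, 0.231 and 1.06 CPM and then at 23.8 CPM in the 60 h library alone. Its 24 h level rests on 3 counts, and the ratio of 60 h to 24 h was 60.7 with a counting interval of 20.4 to 297; without the 60 h library its call is lost (adjusted p 0.532).

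Globin genes and GATA1 came up from almost no counts. HBE1, the embryonic beta-like globin, had 0.653, 0.925, 3.65 and 25.7 CPM, which rest on 5, 8, 24 and 198 counts. Its level at 60 h was 39.4 times that at 24 h (counting interval 16.6 to 123) and its slope was 6.33 ± 0.58 (adjusted p 1.61e-05). HBG2, HBD and HBZ had no count at 24 h and 14.5, 8.18 and 4.41 CPM at 60 h, so that they were at least 37.1-fold, 20.9-fold and 11.3-fold higher against a floor of 3 counts. GATA1, the factor that drives globin genes, went from 0.261 through 0.578 and 3.04 to 5.84 CPM, on 2 counts at 24 h, with a ratio of 22.4 (counting interval 5.85 to 191) and a slope of 4.50 ± 0.62. In all, 11 of 17 erythroid genes rose, 6 were not called and the median slope was 2.78, or 2.03 with the genes that lack a count in some library set to their floor. HBG1 and HBG2 are near copies, as are HBA1 and HBA2, and reads could be split between them. Without the 60 h library none of the 17 was called. HBE1 then had an adjusted p of 0.0501, HBG2 0.101 and HBD 0.193.

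The globin promoter with a window in the table is that of HBD, shown for the GATA core AGATAA and for CCAAT, both in capitals, on either strand.
HBD, chr11:5234484-5234733, minus strand: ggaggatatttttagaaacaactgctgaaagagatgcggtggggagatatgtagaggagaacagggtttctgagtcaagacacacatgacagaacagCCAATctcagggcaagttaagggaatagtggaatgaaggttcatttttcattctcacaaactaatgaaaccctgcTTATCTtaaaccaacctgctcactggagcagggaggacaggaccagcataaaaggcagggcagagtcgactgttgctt

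The GATA core of HBD begins 78 bases before its start. AGATAA stood in 3 of 8 windows of erythroid genes, and in 4.3% of all windows.

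Several platelet genes rose at low levels. ITGA2B, the alpha chain of the platelet fibrinogen receptor and an early surface marker of blood cells, had 7.44, 6.59, 13.5 and 24.7 CPM (slope 1.96 ± 0.29), and its partner ITGB3 had 1.7, 3.7, 3.35 and 8.31 CPM (slope 2.03 ± 0.53). SELP, the adhesion receptor P-selectin of platelets and endothelium, went from 3.39 to 15.1 CPM. Of 12 megakaryocyte genes 5 rose and CLEC1B fell. Without the 24 h library 2 rose and without the 60 h library none, when ITGA2B, ITGB3 and SELP had adjusted p of 0.134 to 0.507.

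The transcription factors of the transition did not move as a group. GATA2, the gene of the reporter, had 119, 163, 206 and 233 CPM and rose by 0.97 ± 0.16 (adjusted p 0.00101). RUNX1, the factor required for the transition, had 119, 122, 111 and 116 CPM, with a slope of -0.07 ± 0.15 (adjusted p 0.787), and GFI1 had 22.3, 14.6, 13.1 and 16.9 CPM (slope -0.41 ± 0.38, adjusted p 0.515). MYB, which definitive progenitors need, had 41.2, 40.7, 45.8 and 52.1 CPM and was not called (slope 0.36 ± 0.19, adjusted p 0.243). MECOM, a stem cell factor that arterial endothelium also expresses, rose from 82 to 184 CPM, and NFE2, a factor of platelet and red cells, from 3.78 to 16.5 CPM. SPI1, the myeloid factor PU.1, rose by 2.95 ± 0.69 but stood at 0.783, 0.347, 1.67 and 3.77 CPM. TAL1 and LMO2, partners in the blood and endothelial complex with GATA factors, fell from 187 to 106 and from 147 to 85.3 CPM, with their lowest levels at 48 h (97.6 and 70.4 CPM). In all 8 of 23 factors rose and 4 fell, and 5 rose without the 24 h library and 5 without the 60 h library. GATA2, TAL1 and LMO2 are not called without the 24 h library (adjusted p 0.0946, 0.25 and 0.269), SPI1 is not called without the 60 h library (adjusted p 0.461), and LMO2 is not called by DESeq2 (adjusted p 0.105).

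Most white cell genes tested were not called. PTPRC, which encodes the leukocyte antigen CD45, had no count in any of the 4 libraries, and MPO and ELANE of granulocytes had none either. PTPRC was low in the suspended cells of the VC+ culture at 60 h too, at 3.16 CPM. SPN, which encodes CD43, an early surface protein of forming blood cells, had 1.7, 2.08, 3.19 and 7.53 CPM and rose by 2.30 ± 0.45 (adjusted p 0.00351). INPP5D, a phosphatase of blood cells, rose from 17 through 31.6 and 42.7 to 64.4 CPM (slope 1.83 ± 0.19). Of 17 leukocyte genes 3 rose and none fell, and 14 were not called, where 8.63% of all genes rose. The summed level of the list, with untested members, was 621, 747, 673 and 758 CPM in the VC- libraries. In the VC+ libraries it was 647, 809, 865 and 1100 CPM. MRC1, a mannose receptor of macrophages and of some endothelium, rose from 64.6 to 154 CPM, while LYZ, the lysozyme of myeloid cells, fell from 18.5 to 6.49 CPM. SPN is not called without the 60 h library (adjusted p 0.389), MRC1 not without the 24 h library (adjusted p 0.0571), and LYZ not without the 24 or the 60 h library (adjusted p 0.323 and 0.253).

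**Figure D3:**
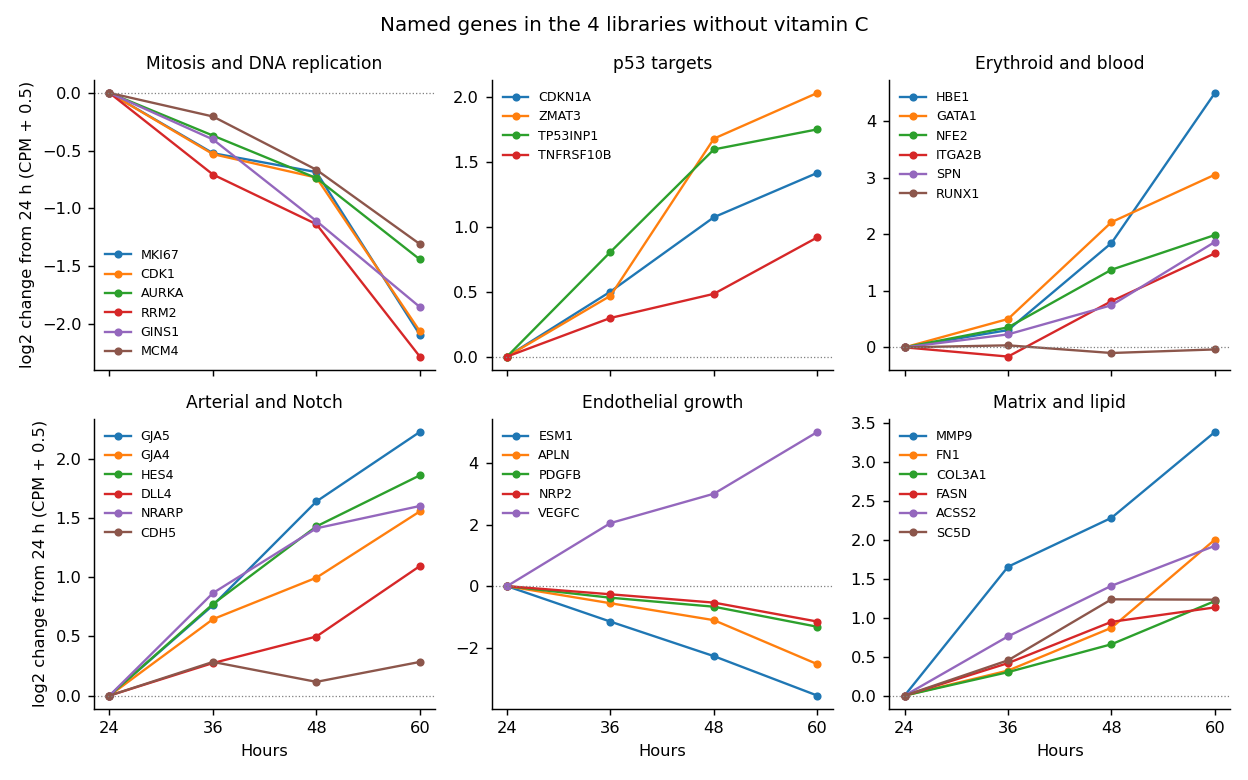
log2 change from 24 h, computed from CPM plus 0.5, of named genes in the 4 libraries without vitamin C against hours, 1 point per library, in 6 panels with their own scales. MKI67 and CDK1 drop most between 48 and 60 h, and HBE1 climbs mostly from 36 h on. RUNX1 and CDH5 stay near 0, and ESM1 and VEGFC part from 36 h.

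Most pan-endothelial genes were not called, and those that were moved in both directions. CDH5, which encodes VE-cadherin, had 895, 1090, 970 and 1090 CPM and was not called (slope 0.20 ± 0.14, adjusted p 0.373), and PECAM1, another junction protein, rose from 769 to 1230 CPM (slope 0.64 ± 0.12). CLDN5, a tight junction protein of mature endothelium, had 17, 38.9, 65.8 and 114 CPM. It passed 2-fold already at 36 h and rose by 2.65 ± 0.23 (adjusted p 9.77e-06). The receptors of angiopoietin signalling TEK and TIE1 rose from 213 to 549 and from 409 to 778 CPM. CD34, a surface protein of endothelium and blood progenitors, fell from 920 through 838 and 544 to 461 CPM (slope -1.09 ± 0.14). Of 24 pan-endothelial genes 7 rose and 4 fell.

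Of 15 arterial genes 9 rose and none fell, with a median slope of 0.78. The gap junction genes of arterial endothelium led them: GJA5 had 123, 209, 384 and 577 CPM, 4.7 times higher at 60 h than at 24 h (counting interval 4.38 to 5.05), and GJA4 had 223, 349, 445 and 656 CPM. Their slopes were 2.27 ± 0.16 and 1.5 ± 0.14 (adjusted p 3.24e-06 and 1.8e-05). The Notch ligand gene DLL4 rose from 438 to 935 CPM (slope 1.06 ± 0.14), and the Notch response genes HES4 and NRARP from 34.1 to 125 and from 39.9 to 122 CPM. NOTCH3, a receptor best known from vessel wall cells, stayed at 35.1 and 37 CPM until 36 h and then reached 103 and 154 CPM. SOX17, an arterial transcription factor, was level at 78.2, 87, 64.9 and 80.9 CPM (slope -0.07 ± 0.21). In the Notch list 8 of 15 rose, and HES1, a target shared with other pathways, fell. Without the 24 h library 6 arterial and 3 Notch genes were called, and without the 60 h library 5 and 2. Among the genes named, PECAM1 and NRARP are lost without the 24 h library (adjusted p 0.127 and 0.0739), and PECAM1, TIE1, DLL4 and NOTCH3 without the 60 h library (adjusted p 0.105, 0.062, 0.057 and 0.0531).

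Genes of sprouting tip cells moved in both directions. ESM1, a proteoglycan gene of tip cells, had 328, 147, 67.2 and 27.3 CPM, past 2-fold at every time, and fell by 3.56 ± 0.36 (adjusted p 3.21e-05). It was 12-fold lower at 60 h (counting interval 10.5 to 13.9). APLN, the apelin peptide of tip cells, had 509, 346, 236 and 87.1 CPM, and PDGFB, which recruits wall cells, had 226, 174, 142 and 90.1 CPM. Their slopes were -2.41 ± 0.25 and -1.27 ± 0.17. VEGFC, the growth factor of lymphatic vessels, rose in the same list, from 0.261 through 2.66 and 5.63 to 24.2 CPM, on 2 counts at 24 h (ratio 92.5, counting interval 25.3 to 770). Its receptor gene FLT4 and the co-receptor gene NRP2 fell, from 508 to 268 and from 483 to 217 CPM. STAB1, a scavenger receptor of venous and sinusoidal endothelium, rose from 229 to 641 CPM, and MAF, a transcription factor of lymphatic endothelium, from 11.4 to 47.7 CPM. In all 3 of 13 tip cell genes rose and 4 fell, and 4 of 11 venous and lymphatic genes rose and 3 fell. FLT4 and MAF are not called without the 24 h library (adjusted p 0.0696 and 0.166), nor NRP2 without the 60 h library (adjusted p 0.0571).

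Wall cell genes that were called rose, while matrix genes moved in both directions. FN1, fibronectin, had 1120, 1400, 2050 and 4500 CPM (slope 1.98 ± 0.20, adjusted p 3.26e-05), with most of the gain between 48 and 60 h. The gelatinase gene MMP9 had 136, 430, 665 and 1430 CPM and was past 2-fold at 36 h (slope 3.21 ± 0.25), although the antisense gene SLC12A5-AS1 overlaps it and strand is not stated. PDGFRB, the receptor for PDGF-B on wall cells, rose from 16.7 to 65.2 CPM, COL3A1, a fibrillar collagen, from 339 to 788 CPM, and ACTA2, smooth muscle actin, from 31.1 to 97.8 CPM. Of 17 mesenchymal genes 7 rose and none fell, and the summed level of that list was 2150, 2180, 2190 and 3100 CPM, against 1590 to 1670 CPM in the VC+ libraries. Of 18 basement membrane genes 6 rose, among them the laminin genes LAMA5 (219 to 640 CPM) and LAMB2 (222 to 437 CPM), and COL4A1, a collagen chain, fell from 1900 to 1410 CPM. Of 16 matrix proteases and their inhibitors 3 rose and 4 fell, with a median slope of 0.03, and MMP2, the other gelatinase, fell from 113 to 59.3 CPM. SMAD6, an inhibitor of BMP signals, went from 232 to 485 CPM by 36 h and reached 791 CPM, while ZEB1, a repressor known from the mesenchymal transition, fell from 150 to 73.4 CPM. In the list of TGF-beta and that transition 6 of 25 rose and 4 fell. Without the 60 h library 2 mesenchymal genes were called, and ACTA2 and LAMB2 were not (adjusted p 0.135 and 0.202). ZEB1 was not called without the 24 h library (adjusted p 0.0527), and COL4A1 and MMP2 not without the 24 or the 60 h library (adjusted p 0.076 to 0.282).

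Among lipid synthesis genes, all that were called rose. FASN, fatty acid synthase, had 943, 1260, 1820 and 2070 CPM (slope 1.19 ± 0.17), and ACSS2, which makes acetyl-CoA from acetate, had 39.9, 68, 107 and 153 CPM (slope 1.93 ± 0.24). ACLY, which makes acetyl-CoA from citrate, and the desaturase gene FADS2 rose by 0.76 ± 0.12 and 0.74 ± 0.13. In the cholesterol pathway SC5D, a late desaturase, went from 132 through 181 to 312 and 311 CPM, and DHCR7, the last reductase, from 117 to 238 CPM. Of 10 fatty acid genes 7 rose, and of 19 cholesterol genes 8 did. These 2 counts rest on the 24 h library, without which they were 2 and 0, with adjusted p of 0.056 to 0.137 for SC5D, ACLY, DHCR7 and FADS2. Without the 60 h library 7 and 3 were called, and DHCR7 had an adjusted p of 0.177.

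Most heat shock and interferon genes were not called. HSP90AA1, an inducible chaperone, had 1620, 1230, 1130 and 695 CPM and fell by 1.13 ± 0.14, while the chaperone gene HSPA8 went from 3030 to 1390 CPM. In all 3 of 8 heat shock genes fell and none rose. HSPA1A and HSPA1B of that list had no count in the 4 VC- libraries and were not tested. FOS, a subunit of the immediate early factor AP-1, had 22.2, 62, 57.2 and 255 CPM (slope 3.22 ± 0.51), and FOSB had 8.35, 11.3, 6.08 and 92.2 CPM. FOSB was thus high at 60 h alone and is not called by DESeq2 (adjusted p 0.27), with hours on a log2 scale (adjusted p 0.0598) or without the 24, 36 or 60 h library (adjusted p 0.0712, 0.0663 and 0.904), where the last turns its slope to -0.59. In the list of immediate early genes 2 of 16 rose and 4 fell. DDIT4, a stress-induced brake on growth signalling, rose from 4.96 to 33 CPM (slope 2.71 ± 0.30). IFIT3, an interferon-induced gene, rose from 24.3 to 61.5 CPM, and 2 of 12 interferon genes rose. TRIM22, an antiviral ubiquitin ligase outside that list, had 0.783, 3.7, 13.4 and 37.4 CPM, which is a rise of 5.27 ± 0.38 (adjusted p 3.24e-06). FOS is not called without the 60 h library (adjusted p 0.256), HSPA8 without the 24 or 60 h library (adjusted p 0.17 and 0.0661), and IFIT3 likewise (adjusted p 0.0949 and 0.0723).

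The chromatin enzymes that vitamin C serves hardly moved. KDM6A and KDM6B, which remove methyl groups from lysine 27 of histone H3, had 40.1, 35, 40.3 and 37.3 CPM and 85.5, 64.2, 74.7 and 86.9 CPM. Their slopes were -0.04 ± 0.19 and 0.08 ± 0.20 (adjusted p 0.927 and 0.832). EZH2, which adds those methyl groups, had 66.9, 60, 66.6 and 42.1 CPM and was not called (adjusted p 0.0989), and its partner PHF19 fell from 109 to 51.2 CPM. Of 20 dioxygenase genes KDM4B alone was called, rising from 53.6 to 100 CPM, and of 10 genes of the Polycomb complex 1 rose and 1 fell. Among the hydroxylases that vitamin C serves in collagen assembly, PLOD2 and PLOD1 rose from 54.3 to 112 and from 182 to 311 CPM, and 4 of 16 genes of that list rose. HOXB9 rose from 202 to 347 CPM and HOXB3 from 40.2 to 91 CPM, genes of position along the body axis. Of 14 HOX genes 3 rose and none fell. KDM4B and PLOD1 are not called without the 24 or the 60 h library (adjusted p 0.0693 to 0.283), HOXB9 and HOXB3 not without the 24 h library (adjusted p 0.0718 and 0.0621) and PHF19 not without the 60 h library (adjusted p 0.32).

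Single genes gave the course its early markers. IGF2, an imprinted growth factor gene, had 163, 334, 633 and 1680 CPM and the smallest p of all slopes (3.32 ± 0.15, adjusted p 3.6e-08). By fold at 36 h the sustained rises were led by FAM13C, CA8, GIMAP1 and PHYHIPL: FAM13C had 0.653, 7.98, 14 and 30.1 CPM and CA8, a carbonic anhydrase relative, 0.914, 9.02, 25.1 and 40.6 CPM. TMEM100, an endothelial gene of BMP9 signalling, had 13.3, 64.3, 150 and 224 CPM, and CROT, a carnitine transferase of peroxisomes, 10.7, 28.2, 91.8 and 153 CPM. Each of these was higher in every later library. At 48 h THSD7A, CBLN2 and TSPAN2 were among the leaders, with TSPAN2 at 0.914, 1.27, 7.3 and 5.97 CPM. DIO3, which inactivates thyroid hormone, had 3.92, 13.6, 57.8 and 112 CPM. TSPAN2 is not called without the 24 or the 36 h library (adjusted p 0.224 and 0.0518), THSD7A not without the 60 h library (adjusted p 0.0672) and PHYHIPL not without the 24 h library (adjusted p 0.103).

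Among the 12 largest falls by slope, the named ones began at 36 or 48 h. NOS2, the inducible nitric oxide synthase, had 58.5, 27.3, 2.58 and 1.69 CPM (slope -5.58 ± 0.64), 34.6-fold lower at 60 h (counting interval 20 to 65.6). MDGA1, an adhesion protein, had 26, 7.17, 1.52 and 0.779 CPM, and CBS, the first enzyme of cysteine synthesis from homocysteine, 20.1, 5.32, 3.95 and 2.08 CPM. These 3 genes lost most of their level before the mitosis genes passed 2-fold. RAPGEF4, a cAMP sensor, went from 8.87 and 6.82 to 2.13 and 0.26 CPM. CBS is not called without the 24 h library (adjusted p 0.199) and RAPGEF4 not without the 60 h library (adjusted p 0.121).

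Some of the largest steps were irregular. Among the genes of the onset filter 13 had no count in at least 1 of the 4 libraries, such as PCGF2, with 10 CPM at 24 h and no count at any later time, and FAM156B, with 23.2 CPM at 60 h and at most 0.304 CPM before. LSM14A had 49.7 CPM at 60 h and 1.82 to 4.18 CPM before. The onset rule counts such genes as it counts any other, and no slope of these 3 is read here.

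The VC+ course gave 1000 rising and 814 falling genes, of which 686 and 556 were called in the same direction without vitamin C. The difference between the slopes was called for a single gene of 15602 (0.00641%), ZNF251, a zinc finger gene of irregular counts, against 775 genes at an unadjusted p under 0.05 and 7 called by DESeq2, none of them ZNF251. Among those 7 are TEK, with slopes of 1.4 without and 0.43 with vitamin C, and HSPG2, the gene of the matrix protein perlecan, with 0.31 and -0.52 (adjusted p 0.0258 for both in DESeq2 and 0.296 for both in edgeR). A fit that takes the 4 shared hours as a block, added after the data were seen and with 2 residual degrees of freedom, called 37 genes (0.237%), ZNF251 among them, and 1168 had an unadjusted p under 0.05. Of the genes described above it called FN1, with slopes of 1.98 without and 0.73 with vitamin C (adjusted p 0.000666, against 0.36 without the block). It also called COL3A1 (1.2 and 0.2, adjusted p 0.0239 and 0.36), STAB1 (1.35 and 0.45, adjusted p 0.0315 and 0.592), TEK (adjusted p 0.0239), HSPG2 (adjusted p 0.0113) and APLN, which had -2.41 and -1.31 (adjusted p 0.0346 and 0.697). PCGF2 is called there too, on counts too irregular for its slope to be read. For other genes named in the text none of these 3 fits called the difference, which does not show that the courses ran alike. For mitosis genes the median slope was -1.59 without and -0.77 with vitamin C. All 20 had the lower slope without it, 4 at an unadjusted p under 0.05 in edgeR, against 775 of all 15602 genes. None was called after adjustment with edgeR, DESeq2 or the blocked fit. The 20 slopes come from the same libraries, and without the VC- 60 h library 3 of the 20 falls were called. MKI67 had a slope of -0.79 and AURKA of -0.38 with vitamin C, and the differences were not called (adjusted p 0.763 and 0.588). For megakaryocyte genes the medians were 0.77 and 1.64, for arterial genes 0.78 and 0.34, for erythroid genes 2.78 and 3.16 and for p53 targets 0.89 and 0.72, with none of their members called for the difference in any of the 3 fits. With 4 libraries to a course the fit without the block has 4 residual degrees of freedom. A slope does not show a difference in level present from 24 h. The second principal component (20.3%) was 17 to 26.4 in VC- and -32.3 to -11.8 in VC+ libraries. At 24 and 60 h the megakaryocyte list summed to 124 and 158 CPM without and 224 and 437 CPM with vitamin C. Erythroid genes had 240 and 326 against 255 and 500 CPM. Arterial genes had 3710 and 7060 against 4250 and 6200 CPM. The p53 targets had 1100 and 2120 against 934 and 1520 CPM. These levels were not tested.

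**Figure D4:**
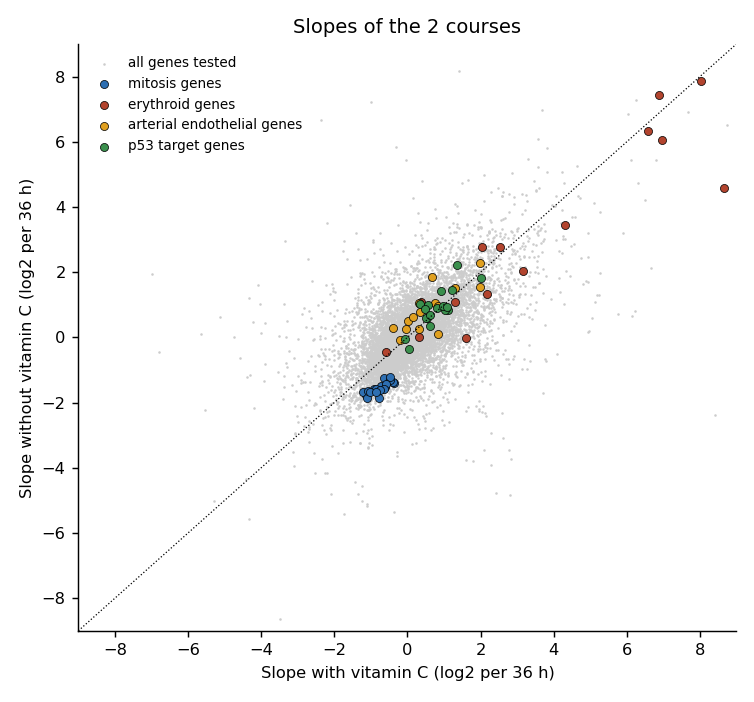
Slope of each gene without vitamin C (vertical) against with vitamin C (horizontal), both as log2 change per 36 h, 1 point per gene, with the line of equality dotted and 7 genes beyond the axes. All 20 mitosis genes lie below the line.

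The adherent and the suspended cells of the VC+ culture at 60 h, 1 library each, show where the genes of each onset class were read in another culture. They hold no VC- cells, so they describe the genes and not the VC- fractions. Their CPM are relative to the plain total of each library, without TMM scaling. Of all genes of the onset filter 9.11% were at least 2-fold higher in suspended and 15.6% in adherent cells, with a median log2 ratio of suspended to adherent of 0.078. Sustained rises at 36 h had a median of -1.27, with 54.3% at least 2-fold higher in adherent cells, those at 48 h -0.95 with 48.1%, and those at 60 h -0.42 with 34.6%. The later a rise, the closer its median was to that of all genes. Sustained falls had medians of -0.35 and -0.31 at 36 and 48 h and 0.64 at 60 h, and in the 60 h class 29% were at least 2-fold higher in suspended cells. MKI67 had 170 CPM in adherent and 366 CPM in suspended cells.

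The lists parted by fraction. Of 15 arterial genes 14 were at least 2-fold higher in adherent cells and none in suspended cells, GJA5 with 503 against 73.9 CPM. Of 17 erythroid genes 15 were at least 2-fold higher in suspended cells, HBE1 with 225 against 2.46 CPM and GATA1 with 136 against 3.45 CPM. SPN had 264 CPM in suspended and 8.13 CPM in adherent cells, and RUNX1 had 502 and 111 CPM.

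**Figure D5:**
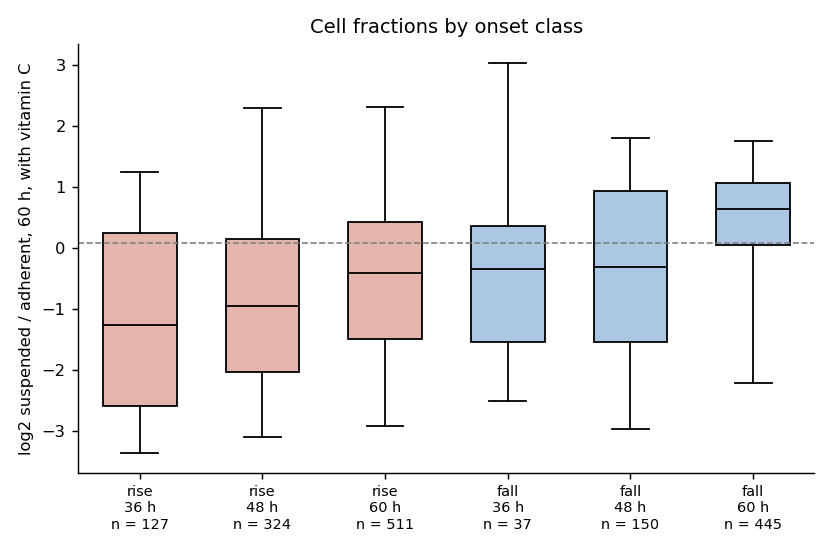
log2 ratio of suspended to adherent cells at 60 h, with vitamin C, for genes with a sustained onset without vitamin C, by direction and hour of onset. Boxes span the quartiles with the median, whiskers run from the 5th to the 95th percentile, the dashed line is the median of all genes (0.078), and the boxes of the rises move up from 36 to 60 h.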

How the data were processed

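RNA-seq counts per gene, deposited by the authors as 1 table of whole numbers per sample, were used as they stand. The submitters' processing notes name DESeq 1.18.1 beside HTSeq 0.6.0, with SAMtools 1.3.1, HISAT2 2.0.4 and the builds hg38 and GRCh38, without their order; the annotation and the use of strand are not given in the sources used here. Names and overlaps come from GENCODE 29. Depth and precision follow from the totals in the report; counting intervals are exact and cover counting error only.

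Libraries were grouped by their titles. A straight line over hours per course was fitted to 8 libraries with edgeR 4.0.16 (TMM, its default filter on low counts, quasi-likelihood F test, two-sided, Benjamini-Hochberg over all genes) in R 4.3.3, with DESeq2 1.42.0 as an alternative. The scripts were tested on simulated data. Alternatives were other scalings, filters, pseudocounts, folds and time scales, the 0 h libraries added, the shared hours as a block, and each library left out. Nothing says that the libraries come from separate cultures. The p-values measure departures of these libraries from the straight lines, which may be technical or a curved course.

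Members and gene lists were chosen with earlier results of these data known. Genes named are the 12 largest called slopes in each direction, up to 4 genes with the smallest p per list, the 6 largest folds per onset class and a short list of regulators. Outside that rule, and chosen after their values were seen, are CCNB2, PLK1, CDC20, CENPE, IGF2, CROT, TMEM100, TAL1, LMO2, PCGF2, FAM156B, LSM14A, HSPG2, COL4A1, genes named for not being called or for having no count, and members named as the single fall of a list. The sorted libraries and the suspended cells at 96 h were not used here, and some genes are not reported here. Figures were drawn with matplotlib 3.10.9 in Python 3.11.15.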

Additional observations from a re-analysis of the deposited data

Results flagged for a closer look

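The slope of ZNF251 differed between the courses in edgeR's test of that difference (adjusted p 0.00851, Benjamini-Hochberg). Its counts were 99, 4, 0 and 0 at 24, 36, 48 and 60 h without vitamin C and 0, 0, 0 and 10 with it. The size of the slope difference cannot be read, since 5 of the 8 libraries had no count.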

How the results depend on the processing

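No paired analysis was possible because each condition and time has 1 library, and its number 1 only names it. The courses do share their hours: with these as a block, added after seeing the data, the slope difference was called for 37 genes against 1; the cause was not tested. Leaving out 1 library at a time gave 369 to 1382 rising and 258 to 1196 falling genes, and 0 to 4 genes with a called slope difference. The same range was 3 to 20 for mitosis, 9 to 19 for DNA replication, 4 to 14 for p53 targets, 0 to 11 for erythroid, 0 to 5 for megakaryocyte, 1 to 3 for leukocyte, 5 to 9 for blood factor, 5 to 9 for arterial, 2 to 9 for Notch, 3 to 8 for pan-endothelial, 2 to 7 for mesenchymal, 2 to 7 for fatty acid and 0 to 9 for cholesterol genes, and these counts per list were added after seeing the data. With the 0 h libraries added, 350 genes rose and 347 fell, 271 and 142 of them shared, and the slopes of MYB (-0.23), TEK (-0.04), APLN (0.2), PDGFB (0.31), FOS (-0.6), FOSB (-0.99), HSPA8 (0.08), COL4A1 (0.13), CBLN1 (0.11) and KDM6B (-0.2) turned; the cause was not tested. The slope difference was called for 7 genes with DESeq2, 102 with no filter beyond 1 count and 0 with at least 5 CPM in 2 libraries. Without 1 library the slopes of these genes, none called but FOSB, took either sign: GFI1 -1.17 to 0.32, CDH5 -0.01 to 0.27, SOX17 -0.39 to 0.02, KDM6A -0.09 to 0.14, KDM6B -0.3 to 0.66 and FOSB -0.59 to 4.91. With a pseudocount of 2 CPM, 96 rises and 48 falls had their onset at 36 h, and the steps were 96, 118 and 132 up and 48, 68 and 166 down. With a minimum of 20 CPM the onsets were 72, 194 and 263 up and 23, 115 and 294 down, and the steps 72, 72 and 59 up and 23, 33 and 141 down. At 3-fold the onsets were 52, 141 and 223 up and 27, 58 and 177 down, and the steps 52, 48 and 57 up and 27, 29 and 53 down, fewer by construction. Rises with their onset at 60 h numbered 540 without the 36 h library and 835 without the 48 h library, which moves earlier onsets there. The median of the sustained rises at 36 h between the fractions was -0.68 with a pseudocount of 5 CPM. Of 1790 alternatives for the slopes of 113 named genes, 1636 kept direction and side of the threshold, 132 lost the call, 4 gained it and 18 turned. Genes under about 5 CPM rest on few counts, and their folds are the least precise.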
